A study of Mus musculus with 12 samples.

Results

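The interleukin-1 and inflammasome axis was followed through 9 mouse genes: the ligands Il1b, Il1a and Il18, the antagonist Il1rn, the receptor genes Il1r2 and Il1rap, and the inflammasome genes Nlrp3, Pycard and Casp1. They were taken by symbol from the 26608 gene rows of the deposited count tables, and all 9 were found and passed the filter on low counts that left 14254 genes. RNA was sequenced from pools of about 250 sorted lung cells of C57Bl/6 mice, in 12 libraries of 4 groups with 3 libraries each. CrePos IM were interstitial macrophages and CrePos RM were nonclassical monocytes from mice with Cre driven by Cx3cr1 and deleted Hif1a (Cx3cr1cre; Hif1a Δ/Δ). CreNeg IM and CreNeg RM were the same cell types from mice without Cre whose Hif1a is floxed (Hif1a flox/flox). All animals had spent 3 weeks in hypoxia with a weekly dose of SU5416, an inhibitor of the VEGF receptor, so no group is untreated. Only CrePos animals carry Cre, so its driver allele and the deletion cannot be told apart, and no source used here gives the ages. Libraries are called by their cell type and the number in their titles, as in IM649.

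Interleukin-1α and interleukin-1β act through the same receptor, which needs the accessory chain encoded by Il1rap to signal, while the Il1rn product competes for that receptor and the Il1r2 product captures ligand without signalling. Nlrp3 encodes a cytosolic danger sensor that, through the adaptor ASC encoded by Pycard, activates caspase-1, the protease that matures interleukin-1β and interleukin-18. In macrophages, NF-κB signalling primes this system by raising Il1b and Nlrp3 transcripts, and in activated mouse macrophages HIF-1, whose oxygen-regulated subunit is encoded by Hif1a, has been found to act on Il1b. Transcripts were measured here, and the maturation and release of the proteins were not.

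The start-site regions of 4 members are shown because the deletion removes a transcription factor with a known core site, and because these genes stand for the different layouts found. Each is the window from 250 bases before to 50 bases after a RefSeq start site in GRCm38.p6, written 5′ to 3′ on the strand of the gene. Capitals mark ACGTG, the core of the hypoxia response element, the κB consensus, and TTNNGNAA, a C/EBP pattern, each on either strand, and overlapping matches share capitals.
Casp1, chr9:5298267-5298566, plus strand: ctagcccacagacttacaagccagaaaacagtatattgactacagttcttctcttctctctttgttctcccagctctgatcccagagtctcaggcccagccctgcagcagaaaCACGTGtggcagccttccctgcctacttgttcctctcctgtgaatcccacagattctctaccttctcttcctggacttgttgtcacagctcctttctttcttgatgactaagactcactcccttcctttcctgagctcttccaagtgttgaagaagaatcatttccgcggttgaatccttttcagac
Il1b, chr2:129371090-129371389, minus strand: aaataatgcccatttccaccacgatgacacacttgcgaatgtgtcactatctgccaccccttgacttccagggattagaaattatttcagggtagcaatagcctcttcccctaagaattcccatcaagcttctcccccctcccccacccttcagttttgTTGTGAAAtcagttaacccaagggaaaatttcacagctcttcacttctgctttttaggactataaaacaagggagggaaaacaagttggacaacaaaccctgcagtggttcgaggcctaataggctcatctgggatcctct
Nlrp3, second window, chr11:59541319-59541618, plus strand: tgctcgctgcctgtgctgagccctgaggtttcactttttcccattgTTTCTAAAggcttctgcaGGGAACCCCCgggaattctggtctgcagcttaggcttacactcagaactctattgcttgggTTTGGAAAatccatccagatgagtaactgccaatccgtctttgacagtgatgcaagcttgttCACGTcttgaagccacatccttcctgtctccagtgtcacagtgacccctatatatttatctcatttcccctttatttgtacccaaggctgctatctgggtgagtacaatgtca
Il1r2, chr1:40085843-40086142, plus strand: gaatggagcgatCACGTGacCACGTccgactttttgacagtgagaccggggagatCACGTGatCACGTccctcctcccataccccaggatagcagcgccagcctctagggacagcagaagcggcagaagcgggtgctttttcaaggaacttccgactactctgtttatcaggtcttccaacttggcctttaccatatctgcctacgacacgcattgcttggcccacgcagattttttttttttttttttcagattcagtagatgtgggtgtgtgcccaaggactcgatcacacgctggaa

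The table held 12 windows for the 9 members, with 3 for Il1rn and 2 for Nlrp3. ACGTG was present in windows of 4 members, Il1r2, Il1rap, Nlrp3 and Casp1, and in those of 21.8% of 27018 genes. The κB consensus was present in 1 member, Nlrp3, against 9.55% of genes. TTNNGNAA was present in 5 members, Il1a, Il1b, Il1rn, Nlrp3 and Pycard, against 44.2% of genes. Over all 32841 windows, the shares were 19.6% for ACGTG, 8.46% for the κB consensus and 40.7% for TTNNGNAA. The Casp1 window holds its matches as the palindrome CACGTG. The Il1r2 window, which lies inside the GENCODE gene, holds 6 matches over both strands. The strands of a CACGTG palindrome count as separate matches, so these 6 lie at fewer distinct places. A match describes these letters and is no evidence of binding.

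Libraries held 5332600 to 14099509 counts in genes. Non-exonic reads made up 59.2 to 69.8% of gene and non-exonic reads in CrePos IM and 38.5 to 44.2% in CreNeg IM, with no overlap, and 55.1 to 72.7% in CrePos RM against 58.1 to 66.8% in CreNeg RM. Hif1a itself lay at 192 to 204 CPM in CrePos IM and 212 to 243 CPM in CreNeg IM, and at 150 to 212 CPM in CrePos RM and 207 to 246 CPM in CreNeg RM. It passed the test in neither cell type (log2 fold changes -0.20 and -0.38, adjusted p = 0.938 and 0.407, edgeR's quasi-likelihood test). A gene that loses some exons can still be counted, so this level does not check the deletion. The marker sums matched the labelled cell types. That of 14 interstitial macrophage markers, led by Apoe, was 11866 to 20323 CPM in IM and 1265 to 4000 CPM in RM. That of 15 nonclassical monocyte markers was 1770 to 3009 CPM in IM and 4249 to 15513 CPM in RM. Not every marker followed its sum. Mean Lyve1 was lower in IM (195 CPM in CrePos, 179 CPM in CreNeg) than in RM (260 and 212 CPM). Mean Cx3cr1, whose gene drives Cre here, was higher in IM (199 and 392 CPM) than in RM (123 and 219 CPM). Ear2 was also higher in IM in both genotypes, and Cebpb in CrePos. The 12 neutrophil markers, among them Csf3r, which monocytes also express, summed to between 60.5 and 145 CPM, and the defining neutrophil gene Ly6g had 0 counts in all libraries. The RM libraries RM661, RM649 and RM648 stood apart. RM661 had the most genes with a count, 17179, an endothelial marker sum of 6955 CPM against at most 3216 CPM in any other RM library, and the lowest sum of nonclassical monocyte markers among RM, 4249 CPM. RM649 had the fewest genes with a count, 10526, and no read of Il1rn, Il18 or Pycard, where 0 counts allows up to 0.495 CPM, a limit that covers counting error only. RM648 held the lowest sum of 7 classical monocyte markers of all libraries, 111 CPM, against 2868 CPM in RM659 and 5829 CPM in RM657, the other CreNeg RM libraries. Fn1 made up most of that sum in RM659 and RM657, and the other 6 markers summed to 70.4 CPM in RM648, 319 CPM in RM659 and 383 CPM in RM657.

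Levels below are CPM, counts scaled to a common library size. Fold changes come from edgeR's quasi-likelihood test, with Benjamini-Hochberg adjustment over all 14254 genes, and a gene passed at an adjusted p under 0.05. The labels do not say that libraries came from separate animals, so p-values measure the spread between these libraries, which may be technical. In bulk samples, fewer cells of a type and less RNA per cell cannot be told apart.

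**Figure D1:**
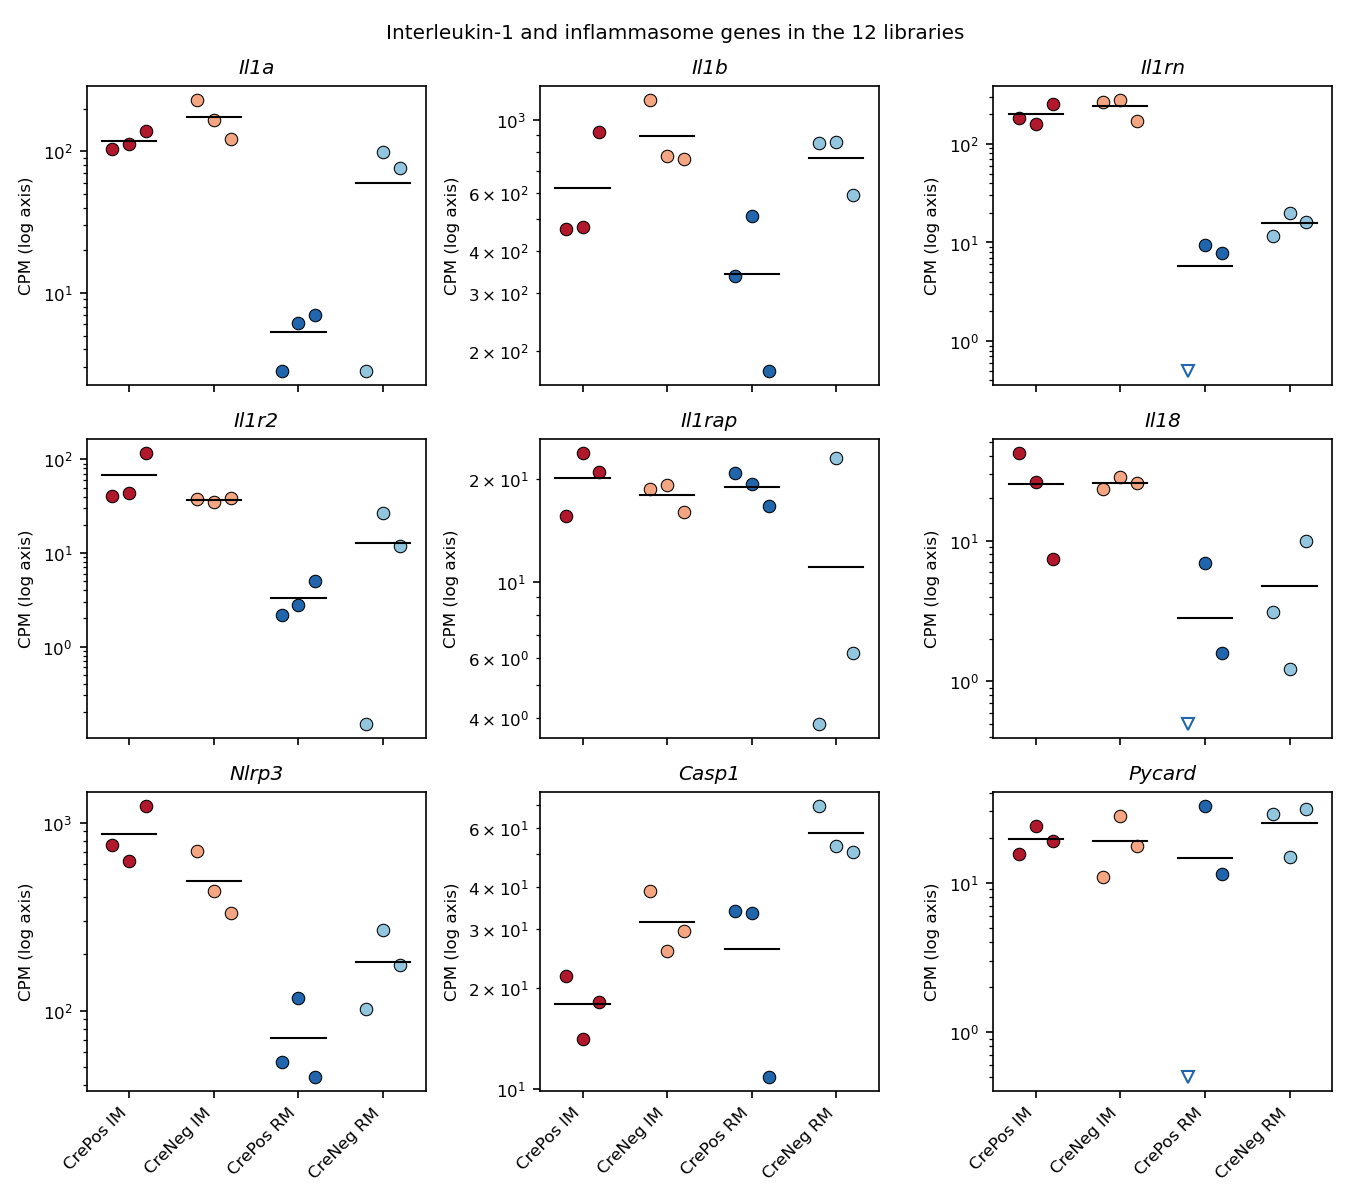
Level of each of the 9 genes in each library, in CPM on a log axis, with 3 libraries per group in the order of their numbers and a line at the group mean. Open triangles stand at the 3-count floor of RM649 where it had 0 counts. Casp1 lies lower in all CrePos libraries than in the CreNeg libraries of the same cell type.

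Il1b, the main secreted interleukin-1 ligand of monocytes and macrophages (chr2:129364570-129371139 in GRCm38, minus strand), ranked first among the members per kb of exon in all 4 groups, while in CPM Nlrp3 was higher in all 3 CrePos IM libraries. Its level was 466, 474 and 923 CPM in CrePos IM (IM649, IM650 and IM661), and 1155, 779 and 761 CPM in CreNeg IM (IM648, IM659 and IM660). IM649 and IM650 lay below every CreNeg IM library, but IM661 lay above 2 of the 3, so the groups overlapped. In CrePos RM it was 337, 511 and 173 CPM (RM649, RM650 and RM661), and in CreNeg RM 852, 856 and 591 CPM (RM648, RM657 and RM659). All 3 CrePos RM libraries were lower than all 3 CreNeg RM libraries. The log2 fold change was -0.53 (SE 0.36, adjusted p = 0.766, edgeR's quasi-likelihood test) in IM and -1.17 (SE 0.37, adjusted p = 0.131) in RM, neither past the test. Within sequencing lanes, named in the deposited file names and holding 1 to 2 libraries a group, the RM difference on the log2 scale was -0.48 in lane 6 and -1.81 in lane 8.

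Il1a encodes interleukin-1α, which is active without maturation and is known as an alarm signal of injured cells (chr2:129299610-129309972, minus strand). It lay at 103, 112 and 140 CPM in CrePos IM (IM649, IM650 and IM661) and at 232, 167 and 123 CPM in CreNeg IM (IM648, IM659 and IM660), with overlap (log2 fold change -0.55, SE 0.72, adjusted p = 0.971, edgeR's quasi-likelihood test). In CrePos RM it lay at 2.81, 6.17 and 7.01 CPM (RM649, RM650 and RM661). In CreNeg RM it lay at 2.80, 99.6 and 75.8 CPM (RM648, RM657 and RM659). RM657 lay just below the lowest IM library, IM649, and RM659 lay further below, while RM648 had 19 counts and stood with the CrePos RM libraries. The fitted log2 fold change in RM was -3.46 (SE 0.81) and missed the threshold, with an adjusted p of 0.0579 in edgeR's quasi-likelihood test. Without RM648 it was -4.02 with an adjusted p of 0.000581, and leaving out any other library gave no call. DESeq2 on all libraries gave -3.32 with an adjusted p of 0.00166. Within lanes the log2 difference was -3.71 in lane 6, which held RM657 and RM659, and 0.59 in lane 8, which held RM648, so its direction differed between lanes. Il1a shares 222 exon bases with Gm14023 on the other strand, which had 0 to 549 counts a library. No source used here gives the strand setting of the counting.

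**Figure D2:**
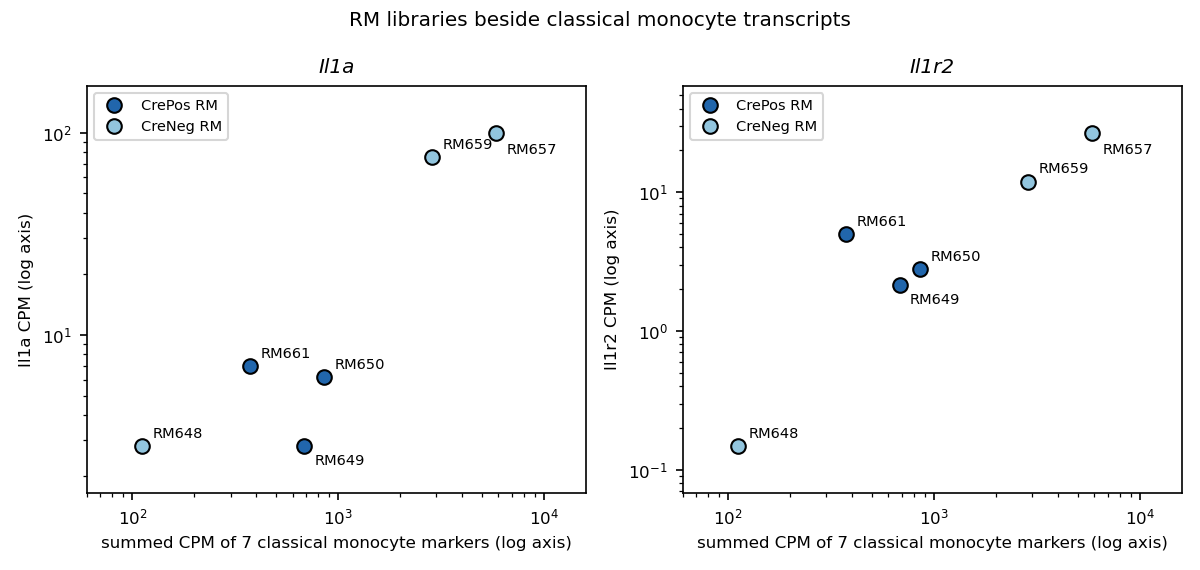
Level of Il1a (left) and Il1r2 (right) in the 6 RM libraries, in CPM, against the summed CPM of 7 classical monocyte markers, both on log axes. RM657 and RM659 are highest on both axes and RM648, also CreNeg, lies at the lowest marker sum with 2.80 CPM of Il1a and 0.148 CPM of Il1r2.

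The sum of the 7 classical monocyte markers was highest in the RM libraries with the most Il1a. It was 680, 854 and 373 CPM in CrePos RM (RM649, RM650 and RM661) and 111, 5829 and 2868 CPM in CreNeg RM (RM648, RM657 and RM659). Not every marker followed the sum, most of which was Fn1 in RM657 and RM659. Ly6c2 was highest in RM649 (30.5 CPM), Vcan in RM650 (72.7 CPM) and Ly6c1 in RM661 (153 CPM), all CrePos. RM657 and RM659, with the highest sums, were the RM libraries with the most Il1a and Il1r2. They also held the highest RM sums of the 14 interstitial macrophage markers, 4000 and 3617 CPM. That sum was 1889 CPM in RM648 and 1265 to 1534 CPM in CrePos RM. The classical monocyte markers themselves summed to 1069 to 2173 CPM in IM. The part of either cell type in the values was not tested. The sum of 12 endothelial markers ran between 2926 and 6955 CPM in CrePos RM and between 665 and 2248 CPM in CreNeg RM, without overlap. That of the 15 nonclassical monocyte markers ran between 4249 and 8015 CPM in CrePos RM and between 9520 and 15513 CPM in CreNeg RM, also without overlap. These gaps stand beside every RM value given for the deletion, and their part in the results was not tested.

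Il18 encodes the other cytokine matured by caspase-1 (chr9:50554827-50581840, plus strand). It lay at 42.2, 26.1 and 7.44 CPM in CrePos IM (IM649, IM650 and IM661) and at 23.4, 28.4 and 25.6 CPM in CreNeg IM. The CrePos IM libraries spread to both sides of the CreNeg IM libraries. In RM it was at 0, 6.91 and 1.60 CPM in CrePos (RM649, RM650 and RM661), against 3.10, 1.22 and 9.95 CPM in CreNeg (RM648, RM657 and RM659), with overlap. The log2 fold changes were -0.03 (SE 1.07, adjusted p = 0.9995) in IM and -0.75 (SE 1.11, adjusted p = 0.792) in RM, by edgeR's quasi-likelihood test.

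Il1rn, which encodes the interleukin-1 receptor antagonist (chr2:24336853-24351494, plus strand), was counted mainly in IM. It lay at 184, 159 and 253 CPM in CrePos IM (IM649, IM650 and IM661) and at 266, 281 and 172 CPM in CreNeg IM, with overlap. In CrePos RM it lay at 0, 9.40 and 7.90 CPM (RM649, RM650 and RM661), and in CreNeg RM at 11.5, 19.9 and 16.3 CPM (RM648, RM657 and RM659). All CrePos RM libraries were below all CreNeg RM libraries, each with at most 163 counts. The log2 fold change was -0.27 (SE 0.66, adjusted p = 0.999) in IM and -1.44 (SE 0.70, adjusted p = 0.330) in RM by edgeR's quasi-likelihood test.

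The ratio of ligand to antagonist transcripts was higher in every RM library that gave one than in every IM library. These are ratios of CPM, and with 2696 exon bases for Il1rn against 1356 for Il1b each excess is larger per kb. In CPM, Il1b exceeded Il1rn by 2.53 to 3.64 times in CrePos IM and by 2.77 to 4.42 times in CreNeg IM. In RM it exceeded Il1rn by 54.4 and 21.9 times in RM650 and RM661 of CrePos, where RM649 gave no ratio, and by 36.4 to 74.0 times in CreNeg. The log2 ratio of Il1rn to Il1b, with 0.5 CPM added to each, was -1.59 ± 0.26 in CrePos IM and -1.91 ± 0.38 in CreNeg IM (SD, n = 3 each), a difference of 0.31 (two-sided exact permutation p = 0.3). It was -6.49 ± 2.61 in CrePos RM and -5.56 ± 0.52 in CreNeg RM (SD, n = 3 each), a difference of -0.93 (two-sided exact permutation p = 0.8). With 3 against 3 libraries the smallest p is 0.1. The RM difference rests on RM649, and without it was 0.53.

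Il1r2 encodes the decoy receptor (chr1:40074079-40125231, plus strand). It lay at 40.6, 43.3 and 118 CPM in CrePos IM (IM649, IM650 and IM661) and at 37.7, 34.7 and 38.6 CPM in CreNeg IM (IM648, IM659 and IM660). All CrePos IM libraries were higher, 2 of them by little and IM661 by far, and the log2 fold change of 0.86 (SE 0.89, adjusted p = 0.928, edgeR's quasi-likelihood test) did not pass. In CrePos RM it lay at 2.14, 2.79 and 4.97 CPM (RM649, RM650 and RM661). In CreNeg RM it lay at 0.148, 26.7 and 11.9 CPM (RM648, RM657 and RM659), on either side of every CrePos RM library, with 1 count in RM648. The RM log2 fold change was -1.95 (SE 0.94, adjusted p = 0.323), and within lanes the log2 difference was -2.48 in lane 6 and 2.55 in lane 8. The order of the 6 RM libraries was the same as for Il1a, as the plot against classical monocyte markers shows.

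Il1rap, the signalling chain shared by receptors of this cytokine family (chr16:26581704-26730117, plus strand), lay at low levels in both cell types. It lay at 15.58, 23.82 and 20.98 CPM in CrePos IM and at 18.61, 19.11 and 15.99 CPM in CreNeg IM. In RM it lay at 20.8, 19.2 and 16.7 CPM in CrePos (RM649, RM650 and RM661), against 3.84, 22.996 and 6.19 CPM in CreNeg (RM648, RM657 and RM659). RM648 and RM659 were low and RM657 was the highest of the 6. The log2 fold changes were 0.17 (SE 0.66, adjusted p = 0.9995) in IM and 0.78 (SE 0.66, adjusted p = 0.608) in RM by edgeR's quasi-likelihood test, and Il1rap was the only member above 0 in RM.

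Nlrp3, the inflammasome sensor (chr11:59541568-59566956, plus strand), had genotype differences of opposite sign in the cell types, as Il1r2 and Pycard had. It lay at 762, 626 and 1231 CPM in CrePos IM (IM649, IM650 and IM661) and at 708, 435 and 333 CPM in CreNeg IM (IM648, IM659 and IM660). Of the CreNeg IM libraries, IM648 lay above 1 CrePos IM library, so the groups overlapped. In CrePos RM it lay at 53.1, 117 and 44.2 CPM (RM649, RM650 and RM661), and in CreNeg RM at 102, 269 and 174 CPM (RM648, RM657 and RM659). Here RM650 of CrePos lay above RM648 of CreNeg. The log2 fold change was 0.83 (SE 0.42, adjusted p = 0.572) in IM and -1.35 (SE 0.43, adjusted p = 0.135) in RM by edgeR's quasi-likelihood test. Without RM650 the RM value was -1.91 with an adjusted p of 0.0475. The test of the difference itself, the IM effect minus the RM effect, gave 2.18 (SE 0.60) with an unadjusted p of 0.00245 and an adjusted p of 0.369, and did not pass.

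Pycard encodes ASC, the adaptor that joins sensor and caspase (chr7:127989708-127993867, minus strand). It lay at 15.6, 23.9 and 19.1 CPM in CrePos IM and at 10.9, 28.0 and 17.7 CPM in CreNeg IM, within the same range. In RM it lay at 0, 32.8 and 11.4 CPM in CrePos (RM649, RM650 and RM661), against 28.9, 14.9 and 31.2 CPM in CreNeg (RM648, RM657 and RM659), with overlap. The log2 fold changes were 0.05 (SE 1.02, adjusted p = 0.9995) in IM and -0.76 (SE 1.03, adjusted p = 0.768) in RM by edgeR's quasi-likelihood test.

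Casp1, the maturation protease (chr9:5298517-5307265, plus strand), was the only member lower without overlap in CrePos libraries of both cell types. It lay at 21.7, 14.1 and 18.1 CPM in CrePos IM (IM649, IM650 and IM661) and at 38.7, 25.7 and 29.6 CPM in CreNeg IM (IM648, IM659 and IM660). In CrePos RM it lay at 34.0, 33.5 and 10.8 CPM (RM649, RM650 and RM661), and in CreNeg RM at 69.8, 53.0 and 50.9 CPM (RM648, RM657 and RM659). Every CrePos library was thus below every CreNeg library of its cell type, a pattern found in 3.51% of all tested genes. The log2 fold changes of -0.80 (SE 0.46, adjusted p = 0.660) in IM and -1.15 (SE 0.46, adjusted p = 0.234) in RM did not pass edgeR's quasi-likelihood test. Within lanes the log2 difference was -0.94 and -0.95 in IM and -0.63 and -1.83 in RM. The average of the effects in both cell types, a contrast chosen after seeing the data, was -0.98 (SE 0.33, adjusted p = 0.128).

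No member passed the test of the deletion in either cell type. In IM, 0.288% of all tested genes passed, and no member reached an unadjusted p under 0.05, as 9.84% of all tested genes did. There 5 members lay below 0 and 4 above, with a median log2 fold change of -0.03 against 0.07 over all genes. Il1r2 was higher and Casp1 lower without overlap, as 16.2% and 13.4% of all tested genes were. Beside these IM values, the sum of the interstitial macrophage markers was 11866 to 14686 CPM in CrePos IM and 18814 to 20323 CPM in CreNeg IM, without overlap, and its part in them was not tested. In RM, 0.421% of all tested genes passed, and 4 members, Il1a, Il1b, Nlrp3 and Casp1, had an unadjusted p under 0.05, as 16.1% of all tested genes had. There 8 of the 9 lay below 0, as did 54.1% of all genes, with a median of -1.17 against -0.10 over all genes. RLE size factors moved the median of all genes to 0.04 and turned no member's direction. RM661 held the lowest Il1b, Nlrp3 and Casp1 of CrePos RM, and without it their values were -0.85, -1.09 and -0.78, none past the test. Il1b, Il1rn and Casp1 were lower without overlap, as 11.4% of all tested genes were.

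**Figure D3:**
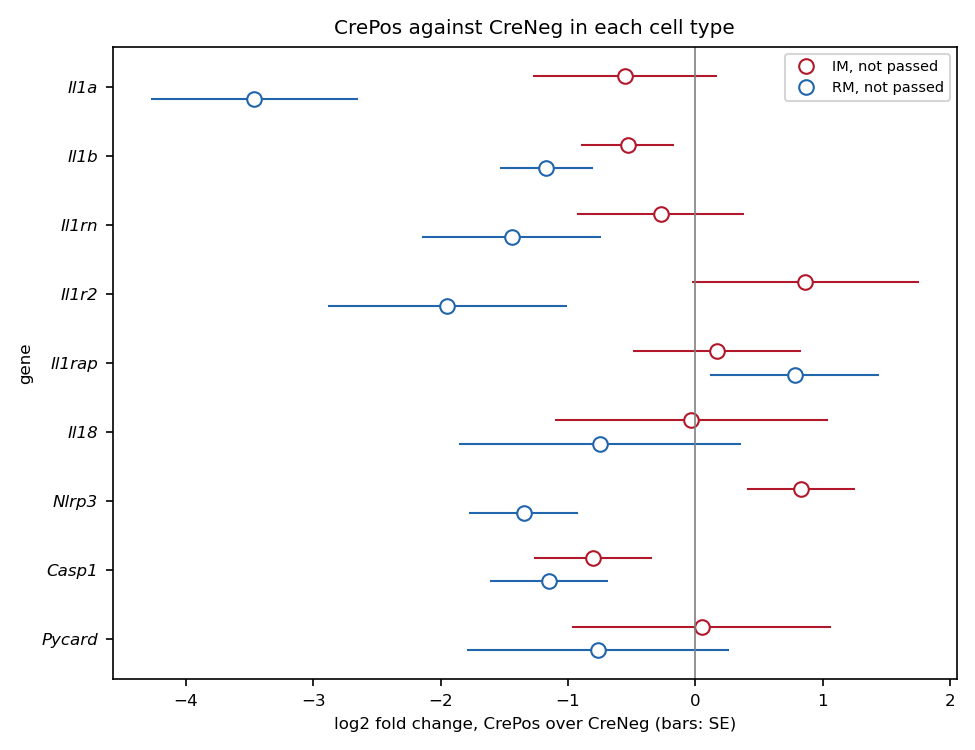
Log2 fold change of CrePos over CreNeg for each gene in IM and in RM from edgeR's quasi-likelihood fit, with bars of 1 SE. All symbols are open because no value passed at an adjusted p under 0.05. In RM all genes except Il1rap lie left of 0, with Il1a at -3.46.

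For the difference between the effects in IM and RM, 0% of all tested genes passed, with 1271 genes (8.92%) at an unadjusted p under 0.05, and DESeq2 called 108. Of the members, 3 reached an unadjusted p under 0.05: Nlrp3, Il1a (2.91, SE 1.06, unadjusted p = 0.0152, adjusted p = 0.480, edgeR's quasi-likelihood test) and Il1r2 (2.81, SE 1.29, unadjusted p = 0.0458, adjusted p = 0.557). All 3 values were positive, which means that the effect was less negative, or more positive, in IM. For the average of both effects no member passed, and Il1a (-2.01, adjusted p = 0.0624) and Il1b (-0.85, adjusted p = 0.0939) came nearest.

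Between cell types, the antagonist Il1rn, the sensor Nlrp3, Il1a and the decoy receptor Il1r2 were higher in IM than in RM in CrePos mice, while Il1b, Il18, Il1rap, Pycard and Casp1 did not pass. These 4 calls stand beside 3.22% of all tested genes that were higher, and no member passed as lower, as 1.35% of all tested genes did. The log2 fold change was 5.08 (SE 0.79, adjusted p = 0.00151) for Il1rn, 4.46 (SE 0.84, adjusted p = 0.00586) for Il1a, 4.33 (SE 1.02, adjusted p = 0.0229) for Il1r2 and 3.61 (SE 0.47, adjusted p = 0.000320) for Nlrp3, by edgeR's quasi-likelihood test. These 4 and Il18 were higher in every IM library than in every RM library, as were 16.0% of all tested genes. Il18 did not pass (3.15, SE 1.17, adjusted p = 0.177, and 0.0371 in DESeq2), nor did Il1b (0.87, SE 0.36, adjusted p = 0.247). Without the filter on low counts, adjusted p was 0.0647 for Il1a and 0.0552 for Il1r2. A replicate block for the title numbers that IM and RM share gave 0.0809 for Il1rn and 0.0509 for Il1a (edgeR's quasi-likelihood test). Neither passed. The Il1r2 call also ended without IM661 (3.55, adjusted p = 0.120), without RM649 (4.10, 0.0919) and without RM650 (4.22, 0.109). A lane term balances the lanes within each cell type and cannot separate lane from cell type, and with it the values were 3.38 (adjusted p = 0.263) for Il1r2 and 3.71 (adjusted p = 0.0325) for Il1a. Beside these CrePos values, the sum of 12 endothelial markers was 788 to 2697 CPM in IM and 2926 to 6955 CPM in RM, without overlap. The part of that difference in the values was not tested.

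In CreNeg, 1 member passed as higher in IM, beside 2.81% of all tested genes: Il1rn, with a log2 fold change of 3.91 (SE 0.74, adjusted p = 0.00504, edgeR's quasi-likelihood test). The 5 members Il1a, Il1rn, Il1r2, Il18 and Nlrp3 were higher in every IM library than in every RM library, as were 18.6% of all tested genes. Casp1 was lower in every IM library, as were 17.2% of all tested genes (log2 fold change -0.89, SE 0.46, adjusted p = 0.310). Nlrp3 (1.44, SE 0.43) narrowly missed the threshold at an adjusted p of 0.0545. It passed without IM661 (0.0448), without RM657 (0.0397), without RM650 (0.0263) or without RM661 (0.0467), but not without any of the other 8 libraries, with an adjusted p of up to 0.243 without IM648. It passed with RLE size factors (0.0403), with the lane covariate (0.00407), among the 6 libraries compared alone (0.0403) and in DESeq2 (0.0154). It did not pass without the filter (0.0789), with a replicate block (0.0908) or with the non-exonic share as a covariate (0.696). Il1a (1.55, SE 0.74, adjusted p = 0.258), Il1r2 (1.52, SE 0.91, adjusted p = 0.405) and Il18 (2.43, SE 1.13, adjusted p = 0.243, and 0.0424 among the 6 libraries alone) did not pass. With the non-exonic share as a covariate the Il1rn value was 2.79 with an adjusted p of 0.592. That share was 38.5 to 44.2% in CreNeg IM and 58.1 to 66.8% in CreNeg RM, without overlap. Share and cell type are thus hard to separate in CreNeg, and a call lost with this covariate cannot tell them apart. A replicate block for shared title numbers gave Il1rn 4.32 with an adjusted p of 0.227 (edgeR's quasi-likelihood test), which did not pass. Cell types were sequenced in different lanes, 5 and 7 for IM and 6 and 8 for RM, so lane and cell type cannot be told apart.

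**Figure D4:**
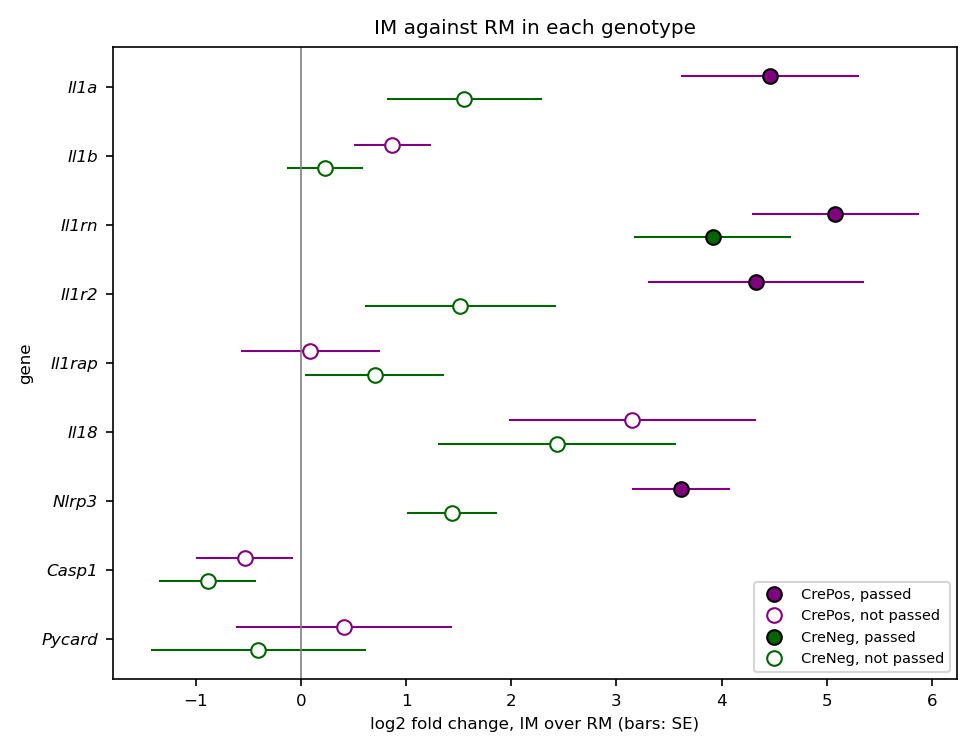
Log2 fold change of IM over RM for each gene in CrePos and in CreNeg libraries from edgeR's quasi-likelihood fit, with bars of 1 SE. Filled symbols passed at an adjusted p under 0.05: Il1rn, Il1a, Il1r2 and Nlrp3 in CrePos, and Il1rn in CreNeg.

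Compared per kb of exon, which allows levels of different genes to be set side by side, Il1b ranked first and Nlrp3 second in every group. Il1b averaged 458 ± 193 CPM per kb in CrePos IM, 663 ± 164 in CreNeg IM, 251 ± 125 in CrePos RM and 565 ± 112 in CreNeg RM (SD, n = 3 each). Nlrp3 averaged 215 ± 78.3, 121 ± 47.9, 17.6 ± 9.81 and 44.8 ± 20.7 CPM per kb in the same groups. After them came Il1rn and Il1a in IM, with 73.7 and 60.1 CPM per kb in CrePos IM and 89.0 and 88.2 in CreNeg IM. Casp1 came next in RM, with 17.4 CPM per kb in CrePos RM and 38.7 in CreNeg RM. Il1rap was last in 3 groups, at 2.34 CPM per kb in CrePos IM, 2.08 in CreNeg IM and 1.28 in CreNeg RM, and Il1rn was last in CrePos RM at 2.14. Neighbours in this order often lay within their spread: the gap was no larger than the larger of their SDs for 4 of 8 neighbouring pairs in CrePos IM, 2 of 8 in CreNeg IM, 6 of 8 in CrePos RM and 7 of 8 in CreNeg RM. In RM only Il1b stood clear of its neighbour in both genotypes. Exon lengths came from GENCODE M21 transcripts paired with RefSeq and are approximate.

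**Figure D5:**
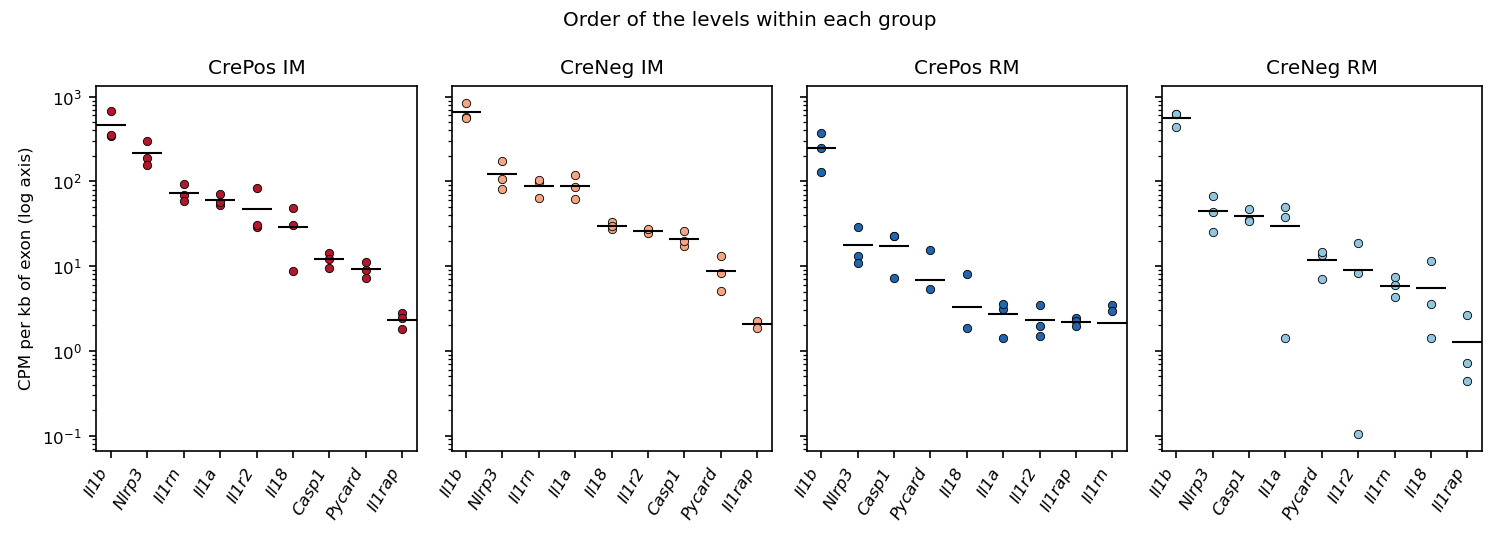
Level of the 9 genes in each group in CPM per kb of exon on a log axis, ordered by the group mean (line), with a point for each library. Libraries with 0 counts have no point on the log axis. Il1b is highest and Nlrp3 second in all 4 groups, and Casp1 follows in both RM groups.

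Other genes of the pathway were taken from a list of 61, of which 56 are in the tables and 50 were tested. For the deletion in IM, none of the 50 passed, with 24 above and 26 below 0. The most abundant was Tnfaip3, a brake on NF-κB signalling, at 1608 ± 370 CPM in CrePos IM and 1791 ± 429 CPM in CreNeg IM (SD, n = 3 each). Nfkbiz, an NF-κB cofactor, lay at 1226 ± 381 CPM in CrePos IM and 1230 ± 203 CPM in CreNeg IM. Cybb, a subunit of the phagocyte oxidase, lay at 765 ± 71.4 CPM in CrePos IM and 1219 ± 231 CPM in CreNeg IM. It was lower without overlap in CrePos IM, as 13.4% of all tested genes were. Cybb did not pass (log2 fold change -0.67, adjusted p = 0.659, edgeR's quasi-likelihood test). Nfkbia, the NF-κB inhibitor, lay at 424 ± 205 CPM in CrePos IM and 623 ± 91.7 CPM in CreNeg IM. For the deletion in RM, 3 of the 50 fell, beside 0.337% of all tested genes, and none rose: Tnf, Nfkbia and Pstpip1, which encodes a partner of pyrin, with log2 fold changes of -3.09, -1.75 and -2.44 (adjusted p = 0.000788, 0.0260 and 0.0325, edgeR's quasi-likelihood test). The Tnf call held without any single library, that of Nfkbia ended without IM648, IM659, RM648 or RM657, and that of Pstpip1 ended without IM648, IM659, IM660, IM649, IM650, RM648 or RM657. Among only the 6 RM libraries none of these 3 passed (adjusted p = 0.165, 0.191 and 0.277). In RM the median of the 50 was -0.52 against -0.10 over all genes, with 39 below 0, as were 54.1% of all genes. All 10 tested sensors and all 9 tested priming genes lay below 0, while 6 of 7 receptors and decoys lay above. Among these, the signalling receptor Il1r1 averaged 36.2 CPM in CrePos RM and 5.80 CPM in CreNeg RM, with at most 9.10 CPM in any CreNeg RM library. Il1r1 did not pass (log2 fold change 2.63, unadjusted p = 0.0204, adjusted p = 0.215, edgeR's quasi-likelihood test). An unadjusted p under 0.05 was reached by 16.1% of all tested genes. The endothelial marker sum was also higher in CrePos RM, as given above, and its part in the Il1r1 value was not tested. Il1r1 is named after its values were seen, because it encodes the receptor of both interleukin-1 ligands. The neutrophil proteases Prtn3, Elane and Ctsg had 0, at most 7 and at most 1 counts in any library.

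For the cell types, 9 of the 50 pathway genes were higher in IM than RM in CrePos, beside the 3.22% of all tested genes given above, and none lower. They were the priming genes Tnf (log2 fold change 3.82), the lipopolysaccharide coreceptor Cd14 (3.05), Tlr4 (2.41), Tnfaip3 (2.12), Nfkbia (1.88) and Tlr2 (1.84), the sensor Nlrp1b (3.08), the caspase of the noncanonical inflammasome Casp4 (1.79), and Pstpip1 (1.81), with adjusted p between 2.32e-05 and 0.0378 in edgeR's quasi-likelihood test. Those of Tnf, Cd14, Tnfaip3, Nfkbia and Tlr2 held without any single library. Among the 6 CrePos libraries alone, the calls of Tlr2 (0.0672), Nlrp1b (0.0652), Casp4 (0.109), Tlr4 (0.177) and Pstpip1 (0.241) ended. A replicate block for shared title numbers ended those of Nlrp1b (0.0722), Tlr4 (0.0778) and Pstpip1 (0.156). The Nlrp1b call ended without IM661, that of Tlr4 without IM649, IM650 or RM649, that of Pstpip1 without IM659, IM650, IM661 or RM650, and that of Casp4 without IM660, IM649, IM650, IM661, RM649 or RM661. In CreNeg, 2 of the 50 were higher and 4 lower in IM, beside 2.81% and 4.67% of all tested genes. Cd14 (1.67, adjusted p = 0.0210) and Tnf (1.64, adjusted p = 0.00455) were higher in IM. Lower in IM were Irak3, an inhibitor of interleukin-1 receptor signalling (-1.82, adjusted p = 0.0411), Nfkb1 (-0.88, adjusted p = 0.0223), and the flagellin sensors Naip5 (-2.15, adjusted p = 0.00957) and Naip6 (-2.54, adjusted p = 0.00960), whose near-identical sequences make their separate counts uncertain. Of these, the Tnf call held without any single library, that of Cd14 ended without IM648, RM648 or RM659, and those of Naip5 and Naip6 ended without IM648 or IM659. The Nfkb1 call ended without IM648, IM659, IM660, RM648 or RM659, and that of Irak3 without IM648, IM659, IM660, IM649, IM661, RM648 or RM657. With the replicate block, all 4 calls of lower genes ended: Naip5 (adjusted p = 0.136), Irak3 (0.141), Naip6 (0.214) and Nfkb1 (0.281), in edgeR's quasi-likelihood test. With the non-exonic share as a covariate, none of these 6 CreNeg calls held (adjusted p between 0.424 and 0.986), and the Irak3 value was 0.09. That share did not overlap between CreNeg IM and CreNeg RM, so the covariate and cell type are hard to separate here.

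The genes whose pattern over the 12 libraries was nearest to that of each member were found by the root-mean-square difference of log2 CPM, each centred on its mean, among 12520 genes. Il1b lay nearest to Efhd2 (0.16), the leukocyte actin-bundling gene Lcp1 (0.26) and Csf1r, the receptor of macrophage colony-stimulating factor (0.28). Casp1 lay nearest to Metrnl (0.24), Mpp1 (0.24) and Rgs2 (0.26). Nlrp3 lay nearest to Tnfaip2 (0.40), Smox (0.49) and Fmn1 (0.50), Il1a to Marveld2 (0.58), Fhl3 (0.71) and Apex1 (0.79), and Il1rn to Basp1 (0.61), Col14a1 (0.76) and Sh3pxd2b (0.78). The nearest genes were at 0.75 for Il1r2 (Flrt3), 0.38 for Il1rap (Mtf1), 0.84 for Il18 (Maf) and 0.44 for Pycard (Sgsh). These libraries share their depth and cell type differences, and the values are a description.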

How the data were processed

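Total RNA of 12 libraries had been made with a stranded low-input kit, which also keeps unspliced RNA, per the labels' protocols. The deposited tables hold raw counts per gene symbol, neither normalized nor filtered, with 5 summary rows a library that were left out of all tests. Reads between genes and in introns made up 38.5 to 72.7% of gene and non-exonic reads. The genome was GRCm38 (mm10) and the tools were HTSeq 0.6.0, TopHat2 2.1.1 and cutadapt 1.12, per the submitters' processing notes. Their options, annotation and strand setting are not stated in the sources used.

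From the counts, edgeR 4.0.16 in R 4.3.3 kept 14254 genes (filterByExpr, minimum count 10), scaled libraries by TMM and fitted 4 group means to all 12 libraries with the robust quasi-likelihood test. Depth was 5332600 to 14099509 gene counts. Contrasts were CrePos against CreNeg in each cell type, their difference, and IM against RM in each genotype. Levels are CPM of effective library sizes. Alternatives were RLE factors, no filter, covariates for lane and non-exonic share, only the libraries compared, a replicate block, leaving out each library, and DESeq2 1.42.0. The procedure was checked on simulated counts. The exact permutation test of the antagonist ratio was run in scipy 1.17.1.

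All 9 members are named. Of the pathway list, genes past the test are named, or else those with the highest CPM. The members, lists and tests were chosen with earlier results of these data known. Coordinates are from GENCODE M21 and sequences from RefSeq (GRCm38.p6).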

Additional observations from a re-analysis of the deposited data

How the results depend on the processing

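Member calls for the deletion were 0 in IM under every alternative run, and 0 in RM except for 1, Il1a, in DESeq2, with 0 to 1 when a library was left out. For the difference of the effects no member was called under any alternative. In IM against RM, CrePos had 4 members called, 2 without the filter, and 3 to 4 when a library was left out. CreNeg had 1, against 0 with the non-exonic covariate, 2 with RLE factors, the lane covariate or DESeq2, 3 among the libraries compared alone, and 1 to 2 when a library was left out. Counts over all genes moved far more. For the deletion in IM, 41 genes became 77 without the filter, 0 with either covariate, 950 among the libraries compared, 435 in DESeq2 and 0 to 234 when a library was left out. For the deletion in RM, 60 became 153 without the filter, 351 with the non-exonic covariate, 3 with the lane covariate, 0 among the libraries compared, 1097 in DESeq2 and 4 to 570 when a library was left out. RLE factors changed its split of 12 higher and 48 lower to 28 higher and 31 lower. The difference of effects had 0 genes, 108 in DESeq2 and 0 to 34 when a library was left out. For IM against RM, CrePos had 652, against 412 with the lane covariate, 228 among the libraries compared, 1310 in DESeq2 and 346 to 1709 when a library was left out. CreNeg had 1066, against 28 with the non-exonic covariate, 2015 among the libraries compared, 1903 in DESeq2 and 504 to 1525 when a library was left out. The difference in the log2 ratio of Il1rn to Il1b ran between 0.19 and 0.53 in IM and between -1.99 and 0.53 in RM when a library was left out, the reversed value being that without RM649. For the 5 title numbers shared by IM and RM libraries, the correlations of their deviations were 0.0205 for IM648 and RM648, 0.0140 for IM649 and RM649, -0.0466 for IM650 and RM650, 0.0809 for IM659 and RM659 and -0.0654 for IM661 and RM661. Each shared number carries the same genotype in both cell types, and the labels do not say whether it marks an animal. Correlations between different cell types cannot settle that, so any pairing is unknown. With a replicate block, members called were 2 in CrePos, where Il1rn (adjusted p = 0.0809) and Il1a (0.0509) lost their calls, and 0 in CreNeg, where Il1rn did (0.227), in edgeR's quasi-likelihood test. All genes called were 405 and 315. Single genes turned direction in these settings, given as log2 values. With the non-exonic covariate these were Il1a (1.21), Il1rn (1.05) and Pycard (-0.20) for the deletion in IM, Il18 (-0.042) and Casp1 (-0.68) for the difference, and Il1r2 (-0.43), Casp1 (0.43) and Irak3 (0.088) for IM against RM in CreNeg. With the lane covariate they were Il18 (0.017) for the deletion in IM, Il1r2 (0.044) for that in RM and Il1rap (-0.11) for IM against RM in CrePos. Without the filter they were Pycard (-0.00434) for the deletion in IM and Il1rap (-0.016) for CrePos. When a library was left out, the range crossed 0 for 7 values. For the deletion in IM these were Il18 (-0.62 to 0.35) and Pycard (-0.23 to 0.37), and for that in RM Il18 (-2.45 to 0.39). For the difference they were Il18 (-0.43 to 2.37) and Casp1 (-0.025 to 0.55). For IM against RM in CrePos they were Il1rap (-0.054 to 0.25) and Pycard (-0.18 to 1.75). None of these was called in the fit reported except Irak3. A lane term cannot separate lane from cell type. The non-exonic share did not overlap between CrePos IM and CreNeg IM, or between CreNeg IM and CreNeg RM. Its covariate is therefore hard to separate from these contrasts. The cause of these changes was not tested. With 3 libraries a group, and 0 to 218 counts of Il1rn, Il18 and Il1r2 in RM libraries, the precision for these genes in RM is low, also in RM661, the RM library with the most gene counts, which held 89, 18 and 56 of them.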
